A study of Rattus norvegicus with 19 samples.

Results

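The genes of the proteasome were described in heart muscle, the left ventricle, of 19 male rats of the Dahl salt-sensitive strain (Harlan SS/Hsd), which becomes hypertensive when fed salt, with 1 Affymetrix array per rat. Members were the genes whose annotated symbol starts with Psma, Psmb, Psmc, Psmd or Psme, taking for each gene the brightest probe set by mean over the 19 arrays that named that gene alone. The rule found 41 of 14217 genes. Of these, 39 encode subunits, base assembly chaperones or activators of the proteasome, and 2 (Psmc3ip and Psme3ip1) match by spelling only and are kept apart. The 39 comprise 7 alpha and 6 constitutive beta subunits of the core, 3 immunoproteasome beta subunits, 6 ATPases and 11 non-ATPase subunits of the regulatory particle, 3 chaperones of its base, and 3 activators. Psmb6 and Psme3 were named only on probe sets that also name other genes, and were not used here.

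The proteasome is the barrel-shaped protease that degrades proteins tagged with ubiquitin. Its core has outer rings of alpha subunits, which gate the entrance, and inner rings of beta subunits, some of which cut peptide bonds. The regulatory particle caps the core: ATPases (Psmc genes) unfold the substrate, while non-ATPase subunits (Psmd genes) bind and remove ubiquitin or hold the particle together. Interferon gamma induces Psmb8, Psmb9 and Psmb10, which replace the catalytic subunits Psmb5, Psmb6 and Psmb7 in newly built cores and shift cutting towards peptides for class I antigen presentation. Cardiomyocytes, which are long-lived and turn over their contractile proteins continuously, rely on this system for protein quality control.

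A 6% NaCl diet was given to every rat from the age of 6 weeks. The combination group (n = 4) received paricalcitol, which activates the vitamin D receptor, at 200 ng by intraperitoneal injection 3 times a week, together with enalapril, an inhibitor of angiotensin-converting enzyme, at 90 ug a day from a pump. The paricalcitol group (n = 4) received those injections alone, the enalapril group (n = 3) the pump with vehicle injections, and the vehicle group (n = 4) vehicle injections. These 4 groups were treated for 4 weeks and taken at 15 weeks of age. The baseline group (n = 4) was taken untreated at 11 weeks, after 5 weeks of salt. The animal numbers in the labels do not interleave between groups, hence a cohort effect and a group effect cannot be told apart. The p-values measure the spread between these rats. In a tissue sample, fewer cells of a type and less RNA per cell cannot be told apart.

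Array medians ran from 43.6 to 72.6 intensity units before the arrays were equalised, and the number of arrays limits the precision. All 8 cardiomyocyte markers were bright, with mean log2 values from 12.82 (Myh6) to 14.21 (Tnnt2). Of 13 leukocyte markers Itgam averaged 4.12, close to the floor of 4, and the others between 5.05 and 10.35. The subunits' own mean log2 values ran from 7 to 12.12, and the lowest single value was 6.63. None was near the floor. Levels of different genes come from different probes and are not set against each other.

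The 250 bases before the annotated start of 5 genes are shown. Psmc3, Psma5 and Psmb3 are 3 of the members with the smallest p over the groups. Psmb10 and Psme2 are among the interferon-induced members. Psme2 itself did not stand out over the groups (moderated F test, unadjusted p = 0.331). The sequences are RefSeq's for the rat build GRCr8, read 5′ to 3′ on the gene's strand. Capitals mark CCAAT, the letters bound by the factor NF-Y, or a pair of GAAA half-sites with any 2 bases between them on either strand, as found in an interferon-stimulated response element.
Psmc3, chr3:97487393-97487642, strand plus: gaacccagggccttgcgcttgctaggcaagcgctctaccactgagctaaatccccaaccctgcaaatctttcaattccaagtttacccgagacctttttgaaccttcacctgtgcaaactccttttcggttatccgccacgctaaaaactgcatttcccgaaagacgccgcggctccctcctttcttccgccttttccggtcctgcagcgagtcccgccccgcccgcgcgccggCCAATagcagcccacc
Psma5, chr2:198584255-198584504, strand plus: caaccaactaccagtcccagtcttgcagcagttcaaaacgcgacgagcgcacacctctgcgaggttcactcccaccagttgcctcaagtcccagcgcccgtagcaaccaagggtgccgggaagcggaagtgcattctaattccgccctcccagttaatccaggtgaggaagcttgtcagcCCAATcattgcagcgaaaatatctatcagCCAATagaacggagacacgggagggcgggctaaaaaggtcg
Psmb3, chr10:83193537-83193786, strand plus: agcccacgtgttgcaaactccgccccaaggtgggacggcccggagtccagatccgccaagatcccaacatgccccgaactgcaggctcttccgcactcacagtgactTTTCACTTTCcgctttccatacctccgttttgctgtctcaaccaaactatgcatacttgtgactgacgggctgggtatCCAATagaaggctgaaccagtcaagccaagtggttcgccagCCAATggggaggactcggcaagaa
Psmb10, chr19:50743293-50743542, strand minus: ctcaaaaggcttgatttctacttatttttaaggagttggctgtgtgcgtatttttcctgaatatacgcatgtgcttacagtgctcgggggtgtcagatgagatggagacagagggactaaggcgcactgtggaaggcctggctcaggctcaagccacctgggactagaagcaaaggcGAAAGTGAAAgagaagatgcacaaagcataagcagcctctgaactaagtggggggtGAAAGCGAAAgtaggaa
Psme2, chr15:33052752-33053001, strand minus: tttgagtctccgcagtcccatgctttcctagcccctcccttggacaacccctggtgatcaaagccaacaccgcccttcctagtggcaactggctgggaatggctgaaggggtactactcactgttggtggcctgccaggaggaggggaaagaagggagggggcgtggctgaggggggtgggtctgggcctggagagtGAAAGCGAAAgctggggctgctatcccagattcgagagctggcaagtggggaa

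Psmb10 held the GAAA pair 2 times, with first bases 73 and 17 bases before the start, and Psme2 held it once, 53 bases before the start. Psmb3 held it once, on the opposite strand and 143 bases before the start, besides 2 CCAAT matches. Psma5 held 2 CCAAT matches and Psmc3 held 1. Sequences were found for 35 of the 39 subunits. The GAAA pair was present in 5 of them (14.3%: Psma4, Psmb3, Psmb10, Psmd7 and Psme2), against 3.4% of 33469 upstream sequences. Psmb8, Psmb9 and Psme1, also interferon-induced, were not among these 5, although Psmb8 had a sequence. CCAAT was present in 17 (48.6%), against 34.0%. TGACNNNGC, the core of the antioxidant response element through which Nfe2l1 acts on proteasome genes, was present in 6 (17.1%), against 10.1%. Both strands were searched, overlapping matches were allowed, and a match describes letters in this window, not a site. The starts of Psmb9 and Tap1, a peptide transporter of antigen presentation, lie 457 bases apart on opposite strands.

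None of the 39 subunits differed among the 5 groups after adjustment in the moderated F test (limma, Benjamini-Hochberg over all genes), against 0.127% of all 14217 genes. The smallest adjusted p was 0.212, for Psmc3. At an unadjusted p under 0.05 there were 10 of 39 (25.6%), against 10.5% of all genes. These 10 were Psmc3, Psmd2, Psmc4, Psma5, Psmd11, Psmb3, Psmb10, Psma1, Psmd14 and Psmd1. The count was 5 with every array scaled to a common median, 2 on the deposited values without equalisation, and 5 with dimmer genes left out. The share of all genes under these settings was not computed, so the lower counts are not read as particular to the subunits.

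Differences between groups were small. The range of the 5 group means had a median of 0.19 over the subunits (lowest 0.066, highest 0.42), against 0.31 over all genes. Of the 39 subunits, 38 were brighter than the median gene, and no range was computed for genes of like brightness. The shares of all genes called also include dimmer genes. Vehicle had the lowest group mean for 21 of 39 subunits (53.8%), against 20.3% of all genes. Paricalcitol had the highest for 15 (38.5%), against 19.7%, and baseline for 11 (28.2%), against 23.7%. Vehicle was lowest for 5 of 7 alpha subunits, 4 of 6 constitutive beta subunits and 5 of 6 ATPases, but for 4 of 11 non-ATPase subunits and 1 of 3 immunoproteasome subunits. Paricalcitol was highest for 5 of 6 ATPases, and baseline for 3 of 3 immunoproteasome subunits. These counts come from quantile-normalized arrays and were not repeated under other scalings. With arrays scaled to a common median, 25 of 39 subunits were higher in vehicle than at baseline (55.9% of all genes). On that scaling 13 of 39 were higher in paricalcitol than in vehicle (36% of all genes).

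The smallest F test p belonged to Psmc3. Psmc3, an ATPase that threads substrates into the core, read 9.58, 9.76, 9.67 and 9.72 (log2 intensity) in paricalcitol, against 9.42, 9.42, 9.31 and 9.41 in vehicle. It read 9.61, 9.67, 9.63 and 9.40 in the combination, 9.51, 9.46 and 9.28 in enalapril, and 9.49, 9.72, 9.55 and 9.64 at baseline. Every paricalcitol and every baseline array lay above every vehicle array, while 1 combination array fell within the vehicle range. The log2 difference was 0.29 for paricalcitol minus vehicle (SE 0.068, n = 4 and 4, 1.22-fold, limma adjusted p = 0.137) and -0.21 for vehicle minus baseline (SE 0.068, adjusted p = 0.293). With arrays scaled to a common median these were 0.13 and -0.10.

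Psmc4, another of the 6 ATPases, read 10.17, 10.24, 10.22 and 10.40 in paricalcitol, against 10.05, 9.93, 9.82 and 10.12 in vehicle. The values were 10.02, 10.21, 10.15 and 10.14 in the combination, 10.16, 10.15 and 10.07 in enalapril, and 10.11, 10.17, 10.28 and 10.17 at baseline. Paricalcitol and vehicle did not overlap, whereas vehicle replicate 4 reached the lower end of the baseline arrays. The paricalcitol minus vehicle difference was 0.28 (SE 0.065, 1.21-fold, adjusted p = 0.142), and 0.12 with a common median.

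Among core subunits, Psma5, an alpha-ring subunit, read 10.29, 10.24, 10.35 and 10.45 in paricalcitol, against 10.20, 10.08, 10.00 and 10.18 in vehicle. It read 10.25, 10.33, 10.31 and 10.15 in the combination, 10.22, 10.37 and 10.23 in enalapril, and 10.33, 10.32, 10.28 and 10.33 at baseline. All paricalcitol, enalapril and baseline arrays lay above all vehicle arrays, and 1 combination array did not. Its differences were 0.22 for paricalcitol minus vehicle (SE 0.055, adjusted p = 0.194), 0.16 for enalapril minus vehicle (SE 0.059, n = 3 and 4, adjusted p = 0.795) and -0.20 for vehicle minus baseline (SE 0.055, adjusted p = 0.206). With a common median these 3 were 0.051, 0.095 and -0.066. Psmb3, a non-catalytic beta subunit, read 10.46, 10.46, 10.59 and 10.63 in paricalcitol, against 10.33, 10.17, 10.31 and 10.31 in vehicle. It read 10.29, 10.48, 10.54 and 10.55 in the combination, 10.23, 10.46 and 10.36 in enalapril, and 10.30, 10.39, 10.50 and 10.38 at baseline. Here only the paricalcitol group stood clear of vehicle, by 0.26 (SE 0.066, 1.19-fold, adjusted p = 0.204), and by 0.076 with a common median.

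The non-ATPase subunits were more mixed. Psmd2, a scaffold subunit that docks carriers of ubiquitin-tagged proteins, read 10.76, 10.72, 10.75 and 10.59 in paricalcitol, against 10.52, 10.41, 10.52 and 10.49 in vehicle. It read 10.55, 10.55, 10.50 and 10.39 in the combination, 10.68, 10.40 and 10.58 in enalapril, and 10.46, 10.55, 10.37 and 10.48 at baseline. Every paricalcitol array lay above every array of the combination, vehicle and baseline groups, which overlapped one another. Its log2 difference was 0.22 for paricalcitol minus vehicle (SE 0.059, adjusted p = 0.218) and -0.21 for combination minus paricalcitol (SE 0.059, adjusted p = 0.271), and 0.042 and -0.11 with a common median.

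Psmd11, a lid subunit, read 10.65, 10.72, 10.70 and 10.71 in paricalcitol, against 10.61, 10.57, 10.55 and 10.62 in vehicle. It read 10.62, 10.61, 10.67 and 10.46 in the combination, 10.60, 10.63 and 10.55 in enalapril, and 10.81, 10.71, 10.64 and 10.75 at baseline. Vehicle lay below both baseline and paricalcitol without overlap. The differences were -0.14 for vehicle minus baseline (SE 0.042, adjusted p = 0.256) and 0.11 for paricalcitol minus vehicle (SE 0.042, adjusted p = 0.412), but 0.017 and -0.064 with a common median. A second probe set of Psmd11 gave -0.003 and 0.12.

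**Figure D1:**
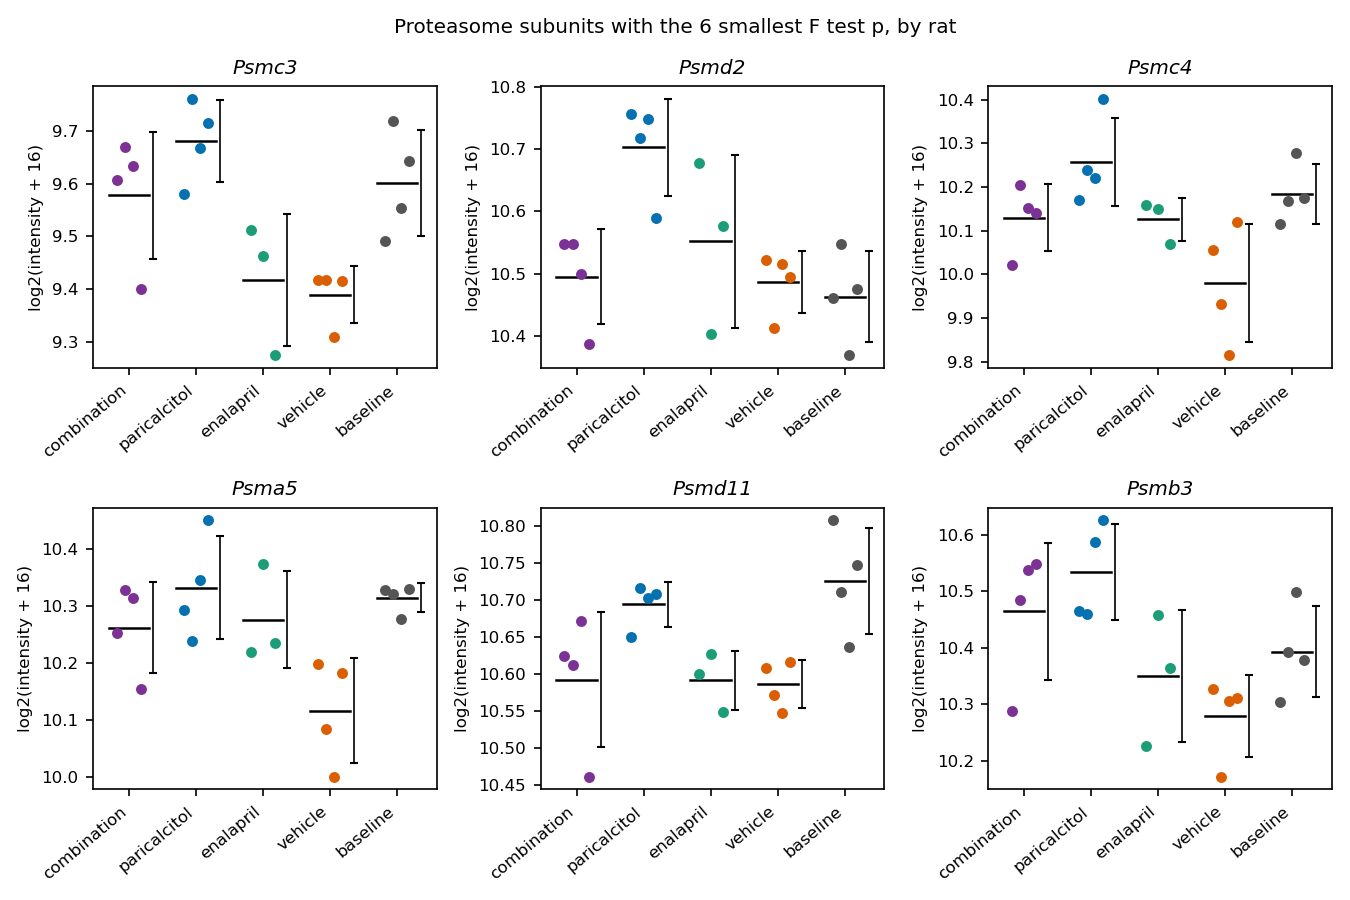
Each panel plots one of the 6 subunits with the smallest F test p; points are rats, horizontal bars are group means, error bars are SD, and the vertical axis is log2(intensity + 16) on a scale of its own. Psmc3, Psmc4, Psma5, Psmb3, Psmd2 and Psmd11 had every paricalcitol point above every vehicle point.

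Vehicle against baseline covers 4 more weeks of salt, of age and of vehicle injections together. None of 39 subunits passed adjustment (limma), against 0.0844% of all genes. Of the 39, 29 had a lower mean and 10 a higher mean in vehicle (25.6% higher, against 47.1% of all genes), with a median difference of -0.08 (all genes, 0). At an unadjusted p under 0.05, 10 were lower (25.6%, against 5.05% of all genes) and 0 were higher (4.15% of all genes; 9.2% in either direction). For 9 subunits every vehicle array lay below every baseline array (4.02% of all genes), and for 1, Psme4, every vehicle array lay above (3.75%).

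By class, 7 of 7 alpha subunits had a lower mean in vehicle, with a median of -0.15 that was -0.017 when arrays were scaled to a common median. All 6 ATPases had a lower mean, with a median of -0.11 that turned to 0.03 with a common median. The constitutive beta subunits split 4 lower and 2 higher (median -0.036, but 0.13 with a common median) and the non-ATPase subunits 7 lower and 4 higher (median -0.035, but 0.084). The 3 immunoproteasome subunits had a median of -0.24, and -0.19 with a common median. That median was -0.40 without vehicle replicate 2 and -0.11 without vehicle replicate 1. The chaperones and activators had medians of 0.006 and 0.033, which were -0.22 and -0.11 on the deposited values. Psma4, an alpha-ring subunit, read 9.78, 9.88, 9.72 and 9.86 in vehicle, against 9.99, 10.19, 10.10 and 9.97 at baseline. These did not overlap, with a difference of -0.25 (SE 0.103, adjusted p = 0.46), which was -0.13 with a common median and -0.45 on the deposited values.

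The count and the direction of this comparison depended on how the arrays were scaled. With each array scaled to a common median, 25 of 39 subunits were higher in vehicle (55.9% of all genes), and 1 was lower at an unadjusted p under 0.05. The median was then 0.033, against 0.035 over all genes. On the deposited values the median was -0.28, against -0.20 over all genes, and with cyclic loess -0.079. Without vehicle replicate 3 the 10 lower subunits became 6. For these counts at an unadjusted p, the share of all genes under the same setting was not computed.

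Paricalcitol against vehicle asked what the vitamin D receptor activator changed under high salt. None of 39 passed adjustment (0.0141% of all genes did). The mean was higher in paricalcitol for 29 subunits (74.4%, against 49.4% of all genes) and lower for 10, with a median of 0.095 (all genes, 0). At an unadjusted p under 0.05, 14 were higher (35.9%, against 4.84% of all genes) and 0 lower (4.8%; 9.64% in either direction). For 8 every paricalcitol array lay above every vehicle array (2.5% of all genes), and for 0 below (2.55%). This comparison and the preceding one share the vehicle arrays, so they are not independent of each other.

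All 6 ATPases had a higher mean in paricalcitol, from 0.099 to 0.29, with a median of 0.18 that was 0.006 when arrays were scaled to a common median. The lowest was Psmc6, whose other probe sets differed in sign, at 0.25 and -0.11. All 7 alpha subunits had a higher mean, from 0.003 to 0.22, with a median of 0.11 that turned to -0.052 with a common median. The non-ATPase subunits had a median of 0.095, with 7 of 11 higher, and the constitutive beta subunits 0.037, with 4 of 6 higher, but -0.074 and -0.13 with a common median. Psmb5, the chymotrypsin-like catalytic subunit, differed by -0.13 (SE 0.074, adjusted p = 0.634) and Psmb7, the trypsin-like one, by 0.069 (SE 0.046, adjusted p = 0.666). The immunoproteasome subunits had a median of -0.034, which was 0.08 without vehicle replicate 2 and 0.036 on the deposited values.

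With a common median per array, 13 of 39 subunits were higher in paricalcitol (36% of all genes), and 0 had an unadjusted p under 0.05 in that direction. The median was then -0.064, against -0.053 over all genes. On the deposited values the median was 0.071 (all genes, 0.026) with 29 of 39 higher (55% of all genes), but 0 at an unadjusted p under 0.05. Cyclic loess gave 0.10. Without vehicle replicate 3 the 14 higher subunits became 6. The share of all genes at an unadjusted p was not computed under these settings. Psmc3, Psmc4, Psma5, Psmb3 and Psmd2 were higher in paricalcitol under all 4 scalings, by 0.042 (Psmd2) to 0.13 (Psmc3) with the common median.

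**Figure D2:**
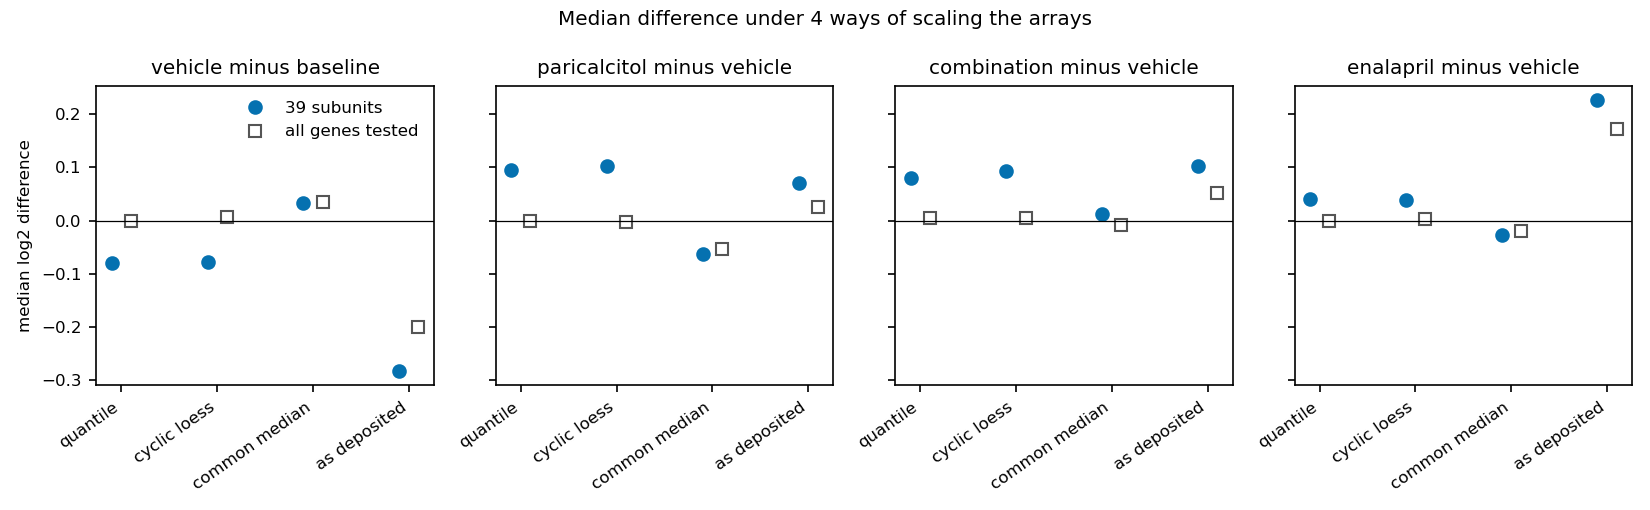
Circles are the median log2 difference over the 39 subunits and open squares that over all 14217 genes, for 4 comparisons (panels) and 4 ways of scaling the arrays (horizontal axis). Circles sit away from squares with quantile normalization (0.095 against 0 for paricalcitol minus vehicle) and almost on them with a common median (-0.064 against -0.053).

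Marker genes of other cell types moved in these same comparisons. Endothelial markers had a median difference of 0.29 for paricalcitol minus vehicle (7 of 7 higher) and -0.18 for vehicle minus baseline (6 of 7 lower). Their score, the median deviation per array, ran from 0.008 to 0.26 in paricalcitol and from -0.24 to -0.063 in vehicle, and from -0.077 to 0.23 at baseline. Leukocyte markers had medians of 0.30 (12 of 13 higher) and -0.17 (10 of 13 lower), with scores from -0.25 to 0.42 in paricalcitol, from -0.42 to -0.047 in vehicle and from -0.24 to 0.20 at baseline. Fibroblast markers had medians of 0.17 (5 of 6 higher) and -0.33 (5 of 6 lower). Cardiomyocyte markers had medians of 0.02 (7 of 8 higher) and -0.013 (5 of 8 lower). Among them Myh6 averaged 13.05 in paricalcitol, 12.06 in vehicle and 12.83 at baseline. Red cell markers had medians of -0.17 (0 of 5 higher) and -0.31 (5 of 5 lower). None of these markers passed adjustment in either comparison, and their part in the subunits' differences was not tested.

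In enalapril against vehicle, the share of subunits called did not exceed that of all genes. None of 39 passed adjustment (0% of all genes), and 1, Psma5, was higher at an unadjusted p under 0.05 (2.56%, against 2.71% of all genes), with 0 lower (2.93%; 5.64% in either direction). It was also the 1 subunit whose groups stood apart (4.33% of all genes upwards, 4.2% downwards). The median was 0.04, with 25 of 39 higher (64.1%, against 53.4% of all genes). There were 11 higher with a common median (46.5% of all genes) and 38 on the deposited values (80.8%). The median was 0.004 without enalapril replicate 1, -0.027 with a common median, and 0.23 on the deposited values, where the median of all genes was 0.17.

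In the combination, none of 39 passed adjustment against vehicle (0.00703% of all genes did). The mean was higher for 32 (82.1%, against 50.9% of all genes) and lower for 7, with a median of 0.081 (all genes, 0.004). At an unadjusted p under 0.05, 12 were higher (30.8%, against 4.2% of all genes) and 0 lower (3.48%; 7.68% in either direction). Groups stood apart for 1 subunit in each direction (2.31% and 1.92% of all genes): Psmd3, a lid subunit, read 9.10, 8.87, 8.82 and 8.89 in the combination, against 8.77, 8.73, 8.70 and 8.74 in vehicle. Psmd7, the lid partner of Psmd14, read 10.04, 10.06, 10.04 and 10.04 in the combination, against 10.11, 10.11, 10.10 and 10.15 in vehicle. Psmd3 was thus higher by 0.19 (SE 0.082, adjusted p = 0.624) and Psmd7 differed by -0.076 (SE 0.051, adjusted p = 0.769).

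Psmd14, the enzyme that cuts ubiquitin off substrates, had the largest regulatory difference, 0.32 (SE 0.098, 1.24-fold, adjusted p = 0.478). It read 10.12, 9.81, 9.66 and 9.90 in the combination, against 9.57, 9.50, 9.42 and 9.74 in vehicle, and 1 array of each group overlapped the other. The other probe sets of Psmd14 gave 0.13 and 0.15. The count of 12 became 6 without vehicle replicate 3 and also 6 without combination replicate 2. It was 7 with dimmer genes left out, 2 with a common median and 0 on the deposited values. The share of all genes under these settings was not computed. The median became 0.013 with a common median, with 22 of 39 higher (43.7% of all genes). It was 0.094 with cyclic loess. On the deposited values it was 0.102 (all genes, 0.051), with 34 of 39 higher (60.2% of all genes). Leukocyte and endothelial markers had median differences of 0.18 (11 of 13 higher) and 0.13 (5 of 7 higher) in this comparison, and their part in it was not tested. By class, the medians were 0.13 for ATPases (6 of 6 higher), 0.097 for alpha and 0.086 for constitutive beta subunits, and 0.053, 0.032 and 0.01 with a common median. That of the non-ATPase subunits was 0.013, and -0.052 with a common median. The 3 immunoproteasome subunits had a median of 0.21, and 0.17 with a common median, which was 0.089 without vehicle replicate 1 and 0.37 without vehicle replicate 2 after quantile normalization.

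**Figure D3:**
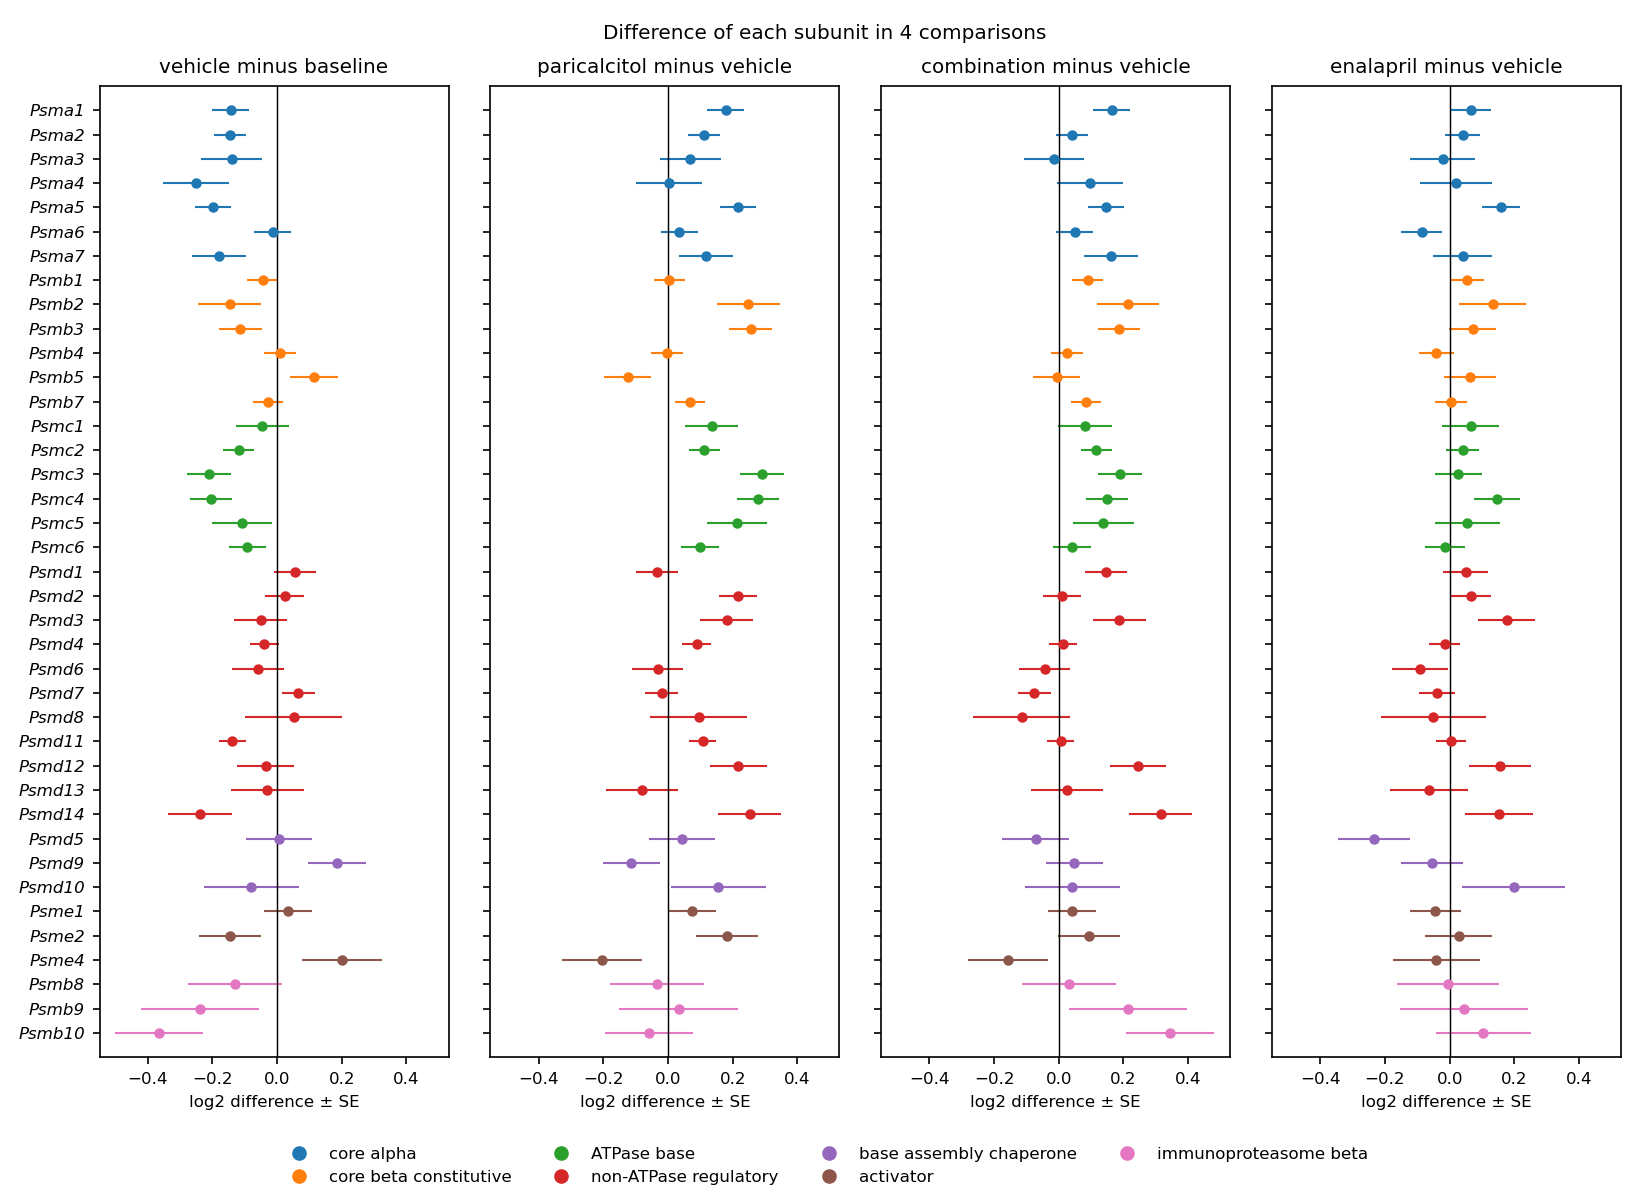
Points are log2 differences with SE for each of the 39 subunits, coloured by class, in 4 panels: vehicle minus baseline, paricalcitol minus vehicle, combination minus vehicle and enalapril minus vehicle. Alpha subunits and ATPases lie left of 0 in the first panel, and ATPases right of 0 in the second (0.099 to 0.29) with quantile-normalized arrays; the ATPase medians of these panels were 0.03 and 0.006 with a common median.

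The combination was also set against each drug alone. Against enalapril, none of 39 passed adjustment (0% of all genes), 2 (Psmc3 and Psma6) were higher at an unadjusted p under 0.05 (5.13%, against 3.02%) and 0 lower (2.28%; 5.3% in either direction). No groups stood apart (2.77% of all genes upwards, 2.17% downwards). The median was 0.066 with 32 higher (82.1%, against 49.8% of all genes). The median was 0.025 without enalapril replicate 3. It was 0.064 with a common median, with 29 of 39 higher (50% of all genes), and 0.071 with cyclic loess. On the deposited values it was -0.092 with 4 of 39 higher (26% of all genes), where the median of all genes was -0.111. Psmc3 differed by 0.16 (SE 0.073, n = 4 and 3, adjusted p = 0.908), and -0.001 on the deposited values. Against paricalcitol, none passed (0% of all genes), 2 were higher (5.13%, against 5.13% of all genes) and 2 lower (5.13%, against 3.91%; 9.05% in either direction). The mean was higher for 18 of 39 (46.2%, against 48.2% of all genes). It was higher for 32 with a common median (57.1% of all genes) and 25 on the deposited values (51.6%). The 2 higher were Psmb10 and Psmd1 and the 2 lower Psmd2 and Psmd11 (-0.10, SE 0.042, adjusted p = 0.473). Psmd11 was -0.007 with a common median, -0.044 on the deposited values, -0.009 on its second probe set and -0.058 without combination replicate 4.

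Psmd1, a scaffold subunit of the base, read 9.68, 9.80, 9.68 and 9.65 in the combination, against 9.57, 9.55, 9.58 and 9.38 in paricalcitol, with no overlap. The difference was 0.18 (SE 0.065, adjusted p = 0.394). Psmb1, a non-catalytic beta subunit, also stood apart, by 0.085 (SE 0.048, adjusted p = 0.638), giving 3 subunits apart upwards (2.04% of all genes) and 1 downwards, Psmd2 (1.39%). In the interaction of both drugs, none passed adjustment (0% of all genes), and 3 were lower at an unadjusted p under 0.05 (7.69%, against 3.14%), with 0 higher (3.8%; 6.94% in either direction). They were Psmd2 and Psmc4, both -0.27, and Psma5, -0.23, with adjusted p of 0.498, 0.575 and 0.583. With a common median they were -0.10 for Psmd2, -0.12 for Psmc4 and -0.065 for Psma5. A negative interaction means that the combination lay below the sum of both single-drug differences. The median interaction was -0.043, with 17 of 39 above 0 (43.6%, against 48.6% of all genes). It was 0.12 with a common median, where 33 of 39 were above 0 (59.2% of all genes).

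Over the mean of the 4 groups at 15 weeks minus baseline, none of 39 passed adjustment (0.183% of all genes), with 1 higher (2.56%, against 4.42%) and 4 lower (10.3%, against 5.25%) at an unadjusted p under 0.05 (9.68% of all genes in either direction). The higher one was Psmd9 and the lower ones Psma2, Psma4, Psmb10 and Psmd11. No groups stood apart (0.0774% of all genes upwards, 0.12% downwards), and 16 of 39 had a higher mean (41%, against 52.8% of all genes). This count was 22 with a common median (56.7% of all genes) and 0 on the deposited values (24.5%). All 7 alpha subunits had a lower mean (median -0.096, and -0.013 with a common median), against 1 of 6 constitutive beta subunits (median 0.009). Psmd11 had the smallest adjusted p, 0.29, at -0.11 (SE 0.034), but its second probe set read 0.053.

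The class scores, the median deviation of a class on each array, placed core and regulatory subunits side by side. Alpha subunits ran from -0.17 to -0.052 in vehicle, against 0.039 to 0.078 at baseline, without overlap. In the combination they ran from -0.039 to 0.082, in paricalcitol from -0.042 to 0.10 and in enalapril from -0.11 to -0.013. ATPases ran from 0.063 to 0.18 in paricalcitol, against -0.12 to -0.05 in vehicle, again without overlap. Constitutive beta subunits ran from -0.005 to 0.071 in paricalcitol and from -0.099 to 0.038 in vehicle, which overlap. Non-ATPase subunits ran from -0.006 to 0.14 in paricalcitol and from -0.11 to -0.024 in vehicle, which do not, and from -0.06 to 0.037 at baseline. These scores come from quantile-normalized arrays. The class medians of alpha, constitutive beta, ATPase and non-ATPase subunits depended on that scaling as given above. For paricalcitol minus vehicle the non-ATPase median was 0.095, but -0.074 with a common median. Immunoproteasome scores ran from 0.002 to 0.45 in the combination, -0.29 to 0.072 in paricalcitol, -0.13 to 0.11 in enalapril, -0.30 to 0.32 in vehicle and 0.056 to 0.35 at baseline.

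**Figure D4:**
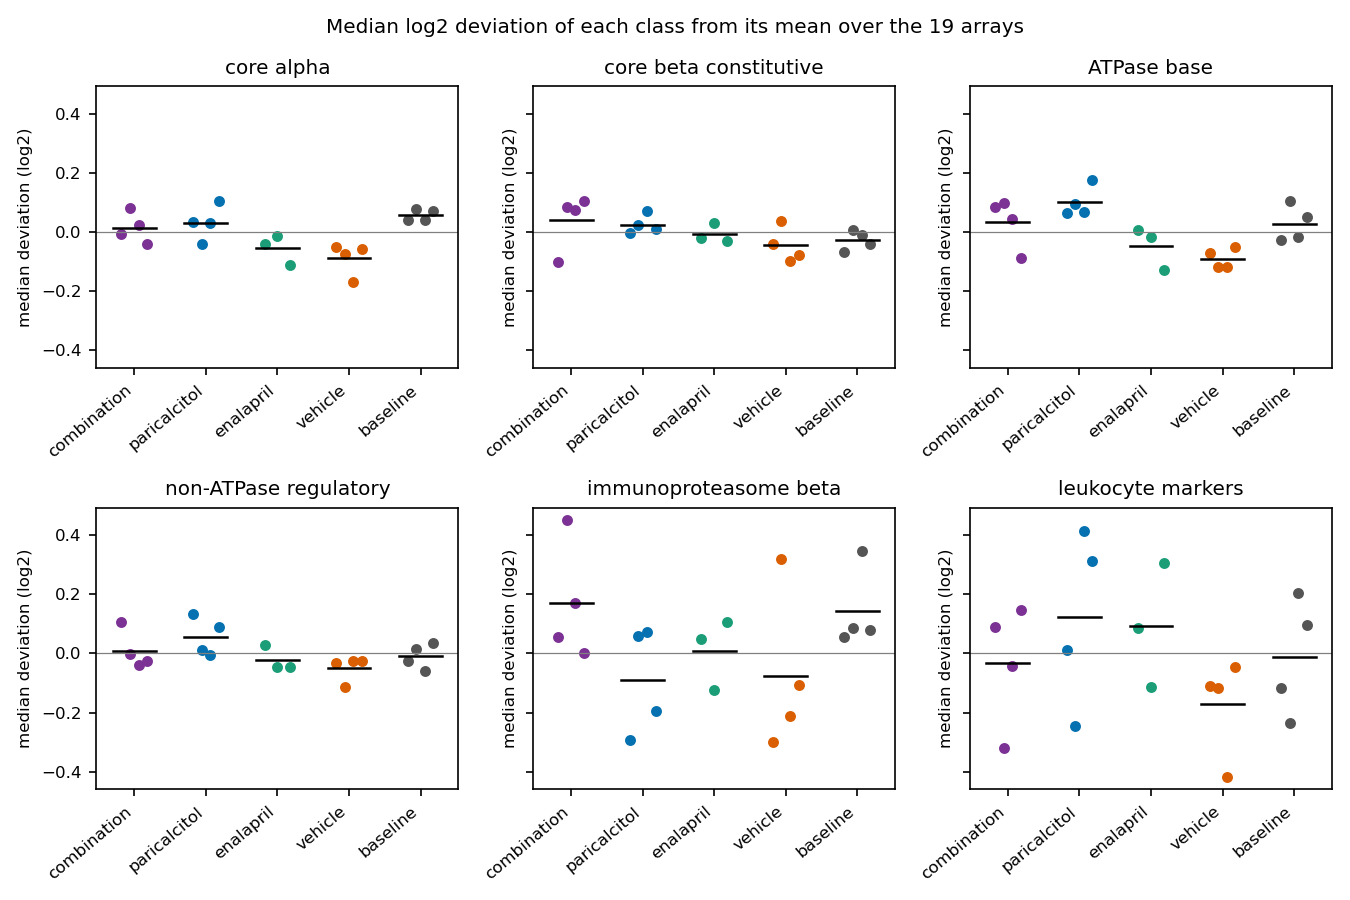
Each point is 1 rat: the median log2 deviation of the genes of a class from their means over the 19 arrays, by group, with group means as bars; 5 panels show subunit classes and 1 the leukocyte markers. With quantile normalization the alpha subunits of vehicle (-0.17 to -0.052) lie below those of baseline (0.039 to 0.078), and immunoproteasome scores spread from -0.30 to 0.32 within vehicle.

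Psmb10 was the immunoproteasome subunit that varied most between groups. It read 7.10, 7.45, 7.20 and 7 in the combination, against 6.71, 6.75, 6.75 and 6.94 in paricalcitol. It read 7.05, 6.67 and 7.13 in enalapril, 6.70, 7.23, 6.63 and 6.81 in vehicle, and 7.25, 7.09, 7.33 and 7.17 at baseline. The combination lay above paricalcitol on every array, and 1 vehicle array, replicate 2, lay within the baseline range. The difference was 0.40 for combination minus paricalcitol (SE 0.136, 1.32-fold, adjusted p = 0.361), 0.35 for combination minus vehicle (SE 0.136, adjusted p = 0.585) and -0.36 for vehicle minus baseline (SE 0.136, adjusted p = 0.399).

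These Psmb10 values kept their direction under the 4 scalings: 0.39 to 0.42 for combination minus paricalcitol, 0.32 to 0.41 for combination minus vehicle, and -0.62 to -0.34 for vehicle minus baseline. Leaving out single arrays gave 0.32 to 0.47, 0.26 to 0.47 and -0.49 to -0.29. Set against Psmb7, whose place in the core it takes, the centred ratio on the log2 scale was 0.15 ± 0.15 (SD, n = 4) in the combination and -0.24 ± 0.11 (n = 4) in paricalcitol. It was -0.016 ± 0.30 (n = 3) in enalapril, -0.11 ± 0.17 (n = 4) in vehicle and 0.22 ± 0.13 (n = 4) at baseline.

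Psmb8, which replaces Psmb5, read 7.23, 7.48, 7.17 and 6.85 in the combination, 6.96, 7.28, 7.25 and 6.97 in paricalcitol, and 7.31, 7.05 and 7.08 in enalapril. It read 6.98, 7.50, 6.97 and 7.16 in vehicle, and 7.23, 7.11, 7.52 and 7.26 at baseline. All groups overlapped, and the F test gave a limma adjusted p = 0.96. Psmb9, which replaces Psmb6, read 7.52, 8.23, 7.93 and 7.76 in the combination, 7.36, 7.81, 7.98 and 7.56 in paricalcitol, and 7.56, 7.65 and 7.86 in enalapril. It read 7.27, 8.12, 7.55 and 7.65 in vehicle, and 7.80, 7.84, 8.10 and 7.79 at baseline. Vehicle replicate 2 was the highest vehicle array for all 3 subunits, and combination replicate 2 the highest combination array. Leukocyte marker scores ran from -0.32 to 0.15 in the combination, -0.25 to 0.42 in paricalcitol, -0.11 to 0.31 in enalapril, -0.42 to -0.047 in vehicle and -0.24 to 0.20 at baseline. Their part in the immunoproteasome values was not tested.

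These subunits varied together between rats. The correlation of deviations from group means over the 19 arrays, which share RNA and scaling within an array, was 0.70 for Psmb8 and Psmb9, 0.71 for Psmb8 and Psmb10 and 0.65 for Psmb9 and Psmb10. Psmb9 and Tap1 had 0.76. The median over pairs was 0.19 within the core, 0.19 among ATPases and 0.054 among non-ATPase subunits, against 0.002 over brighter genes. The 5 genes most like Psmb8 were Mx2 (0.90), Eno3 (0.88), Slc27a3 (0.87), Ifi44l (0.87) and Gbp2 (0.85). Those most like Psmb9 were Tpp2 (0.90), Thoc5 (0.89), Igtp (0.88), Ly6e (0.87) and Trim30d (0.87). Genes listed as most alike were picked as the highest of all genes, so high correlations follow from the choice. Mx2, Ifi44l, Gbp2 and Igtp are genes induced by interferon, and the share of such genes over all genes was not computed. The genes most like Psmb10 were Aacs (0.80), LOC102549303 (0.79), Ppt2 (0.78), Plekhh3 (0.765) and Cyp2a1 (0.76). Aacs and Ppt2 averaged 4.65 and 4.47, close to the floor of 4, and Slc27a3 averaged 5.

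Of the activators, Psme1 and Psme2 form the interferon-induced ring that opens the core without ubiquitin. Psme1 averaged 12.15 ± 0.11 in the combination, 12.18 ± 0.19 in paricalcitol, 12.06 ± 0.064 in enalapril (n = 3), 12.11 ± 0.049 in vehicle and 12.07 ± 0.014 at baseline (SD, n = 4 elsewhere). Psme2 averaged 9.78 ± 0.22 in the combination, 9.87 ± 0.16 in paricalcitol, 9.71 ± 0.11 in enalapril, 9.68 ± 0.06 in vehicle and 9.83 ± 0.066 at baseline. In vehicle every Psme2 array lay below every baseline array, with a difference of -0.15 (SE 0.095, adjusted p = 0.687). Paricalcitol held 2 arrays of Psme1 at 12.34 and others at 12.08 and 11.97. Deviations of Psme1 and Psme2 correlated at 0.65. The genes most like Psme1 were Dgkb (0.95), Clns1a, LOC100912248, Tnni3k and Rnf167, and those most like Psme2 Dnajb9 (0.93), Mrps28, Ddi2, Mrpl21 and Crybb1. Of these, Crybb1 averaged 4.63, close to the floor.

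Psme4, an activator that caps the core in the nucleus, had differences opposite in sign to the subunit medians after quantile normalization. It read 10.54, 10.63, 10.63 and 10.72 in vehicle, against 10.44, 10.52, 10.43 and 10.32 at baseline, with no overlap. It read 10.54, 10.12, 10.38 and 10.84 in the combination, 10.50, 10.25, 10.31 and 10.63 in paricalcitol, and 10.74, 10.41 and 10.60 in enalapril. The difference was 0.20 for vehicle minus baseline (SE 0.124, adjusted p = 0.679) and -0.20 for paricalcitol minus vehicle (SE 0.124, adjusted p = 0.65). Both other probe sets of Psme4 had the same signs, 0.27 and 0.18, and -0.38 and -0.21. Their deviations from group means correlated with those of the main probe set at -0.2 and 0.91. For vehicle minus baseline, Psme4 differed by 0.02 on the deposited values and by 0.34 with a common median. The subunit median with a common median was 0.033, of the same sign as Psme4.

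**Figure D5:**
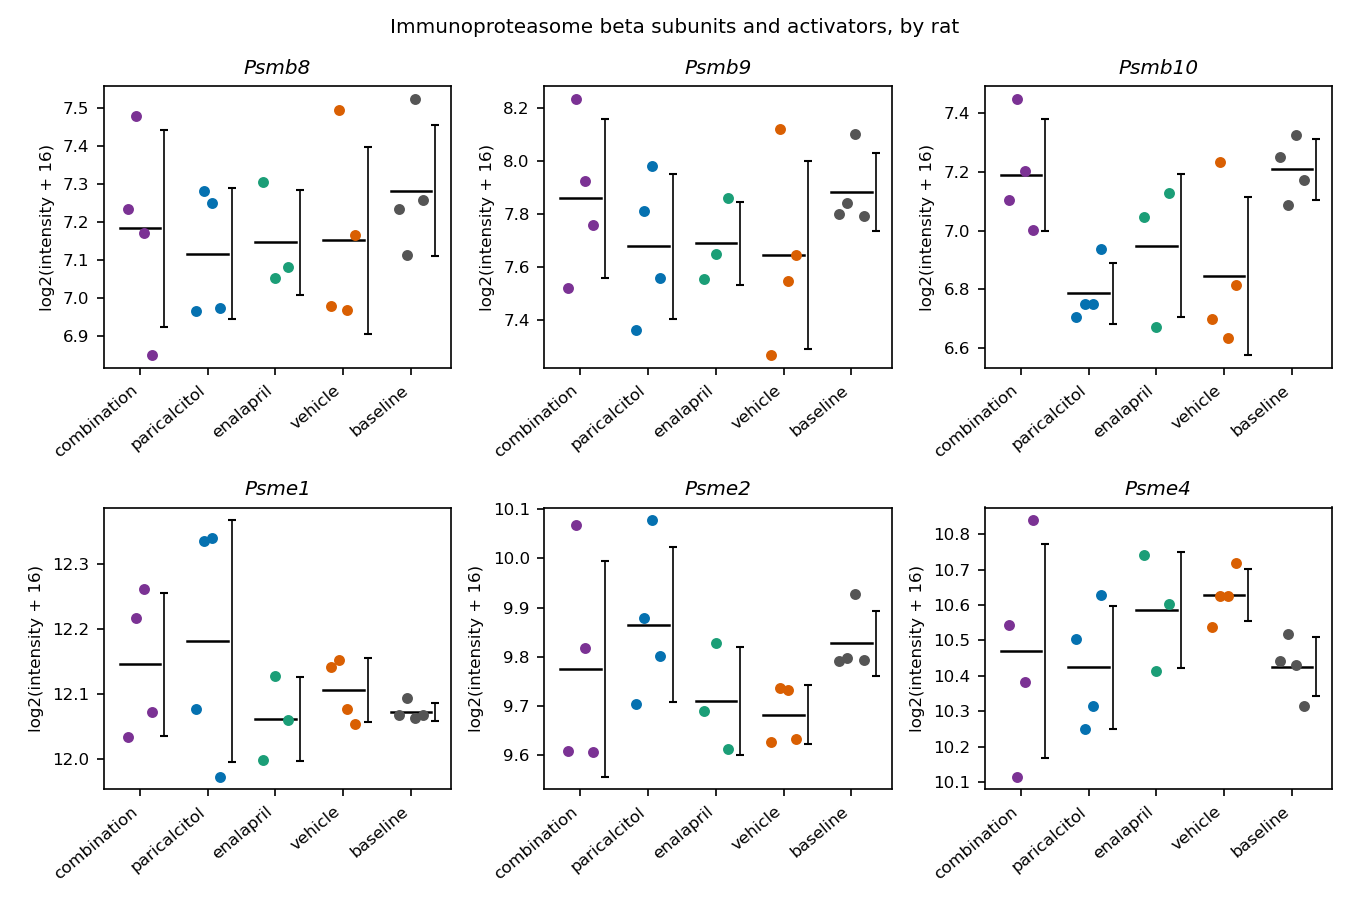
Panels show 3 immunoproteasome beta subunits and 3 activators; points are rats, bars are group means, error bars are SD, and the vertical axis is log2(intensity + 16) on a scale of its own. In the Psmb10 panel all combination points lie above all paricalcitol points (7 to 7.45 against 6.71 to 6.94), and groups overlap throughout for Psmb8.

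Genes that work with the proteasome gave 0 adjusted calls in each comparison. Of 16 assembly and associated factors, 12 had a lower mean in vehicle than at baseline (median -0.054), 12 a higher mean in paricalcitol than in vehicle (median 0.062) and 14 a higher mean in the combination than in vehicle (median 0.068). Usp14, a deubiquitinase docked on the regulatory particle, was higher by 0.16 in the combination than in vehicle (SE 0.048, limma adjusted p = 0.469). Txnl1, a thioredoxin-like protein bound to the particle, differed by 0.18 for paricalcitol minus vehicle (SE 0.059, adjusted p = 0.325). Of 9 regulators of proteasome genes, 6 had a higher mean in paricalcitol and 6 in the combination than in vehicle, with medians of 0.069 and 0.097. Irf1, an interferon-induced transcription factor, had the smallest F test p of the list and differed by -0.28 for enalapril minus vehicle (SE 0.12, adjusted p = 0.84). Keap1, the inhibitor of Nfe2l2, differed by 0.24 for combination minus vehicle (SE 0.08, adjusted p = 0.499). Nlrc5, an activator of class I genes, differed by 0.37 for combination minus vehicle (SE 0.137, adjusted p = 0.55).

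Of 10 class I antigen processing genes, 7 had a lower mean in vehicle than at baseline (median -0.10), and 5 of 10 a higher mean in the combination than in vehicle (median -0.001). Pdia3, a chaperone of class I loading, differed by -0.24 for vehicle minus baseline (SE 0.083, adjusted p = 0.346). RT1-S3, a class I gene, had the smallest F test p of the list (limma adjusted p = 0.175). Only 2 ubiquitin supply genes were measured: Uba1 and Uba6, the enzymes that activate ubiquitin, differed by 0.05 (SE 0.111) and -0.26 (SE 0.084) for paricalcitol minus vehicle. Of the symbols matched by spelling, Psmc3ip, a recombination factor, and Psme3ip1 had adjusted F test p of 0.854 and 0.79.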

How the data were processed

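Per the labels, biotin-labelled cRNA was made from 5 ug of total RNA with an integrity number above 9. The authors deposited one linear intensity per probe set and array; the summarisation tool is not given in the sources used here. On each array 16% to 18.2% of values were negative. Arrays were quantile normalized, values below 0 set to 0, and log2(value + 16) taken. Of 31099 probe sets, 20826 named 1 gene, giving 14217 genes by the highest mean; 57 control probe sets were left out. limma 3.58.1 (R 4.3.3) fitted group means over 19 arrays with eBayes and a variance trend, and Benjamini-Hochberg adjusted over all genes at 0.05. The procedure was tested on simulated data with planted differences of 1 log2 unit. These exceed every subunit difference here, so the simulation does not speak to differences as small as those of the subunits. Subunits named with values were the 6 with the smallest F test p, catalytic pairs, activators, and in each comparison up to 3 per direction whose groups did not overlap; Psmd14 and the members listed by unadjusted p were chosen after their values were seen. Members and lists were chosen with earlier results of these data known. Alternatives covered scaling, pseudocount, filter, trend, weights, groups fitted, probe sets, replicate block, and each array left out; the counts at an unadjusted p and the red cell score as a covariate were added after seeing the data. The labels do not pair rats. Deviations of arrays with equal replicate numbers correlated above 0.1 in every pair for 1 of 10 pairs of groups, paricalcitol and combination (r from 0.31 to 0.56 over 4 pairs), which rests on the data and not on the design.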

Additional observations from a re-analysis of the deposited data

Results flagged for a closer look

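In groups of 4 rats, a value was singled out when its gap to the nearest other, divided by the group's range, exceeded Dixon's critical value. This applied to 19 of 156 subunit and group sets. The nominal rate of about 1 in 20 holds for independent, normally distributed values, whereas these sets share the same arrays. The share over all genes was not computed, so the count is not read as an excess. In the combination these log2 values were Psmb5 at 11.24 in replicate 1, Psmc5 at 10.01 in replicate 4 and Psmd7 at 10.06 in replicate 2. In paricalcitol these log2 values were Psma4 at 9.55 in replicate 2, Psmb1 at 11.22 in replicate 2 and Psmd1 at 9.38 in replicate 4. In vehicle these log2 values were Psma6 at 11.92 in replicate 4, Psmb3 at 10.17 in replicate 2, Psmb7 at 11.54 in replicate 2, Psmc3 at 9.31 in replicate 3 and Psmd7 at 10.15 in replicate 4. At baseline these log2 values were Psma5 at 10.28 in replicate 3, Psmb7 at 11.45 in replicate 2, Psmb9 at 8.10 in replicate 3, Psmc2 at 11.77 in replicate 2, Psmc5 at 10.39 in replicate 2, Psmd5 at 9.23 in replicate 4, Psme1 at 12.09 in replicate 2 and Psme2 at 9.93 in replicate 3. For Psmb9 and Psme2 the baseline value was the same rat, replicate 3, whose value was the highest of the 4, and for Psmb7, Psmc2, Psmc5 and Psme1 it was replicate 2, also the highest. Within their own groups, vehicle replicate 3 gave the lowest Psmc3 value and paricalcitol replicate 2 the lowest Psma4 and Psmb1 values. The causes were not tested.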

How the results depend on the processing

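No subunit passed adjustment in the main setting or in any alternative that was run, including each array left out in turn, where the smallest adjusted p of a named difference was 0.0841 (Psmc3, paricalcitol minus vehicle). Of 32 named differences, 32 kept their sign with cyclic loess, 30 with a common median and 31 on the deposited values. The exceptions were Psmd11 at 0.017 (vehicle minus baseline) and -0.064 (paricalcitol minus vehicle) with the common median, and Psmc3 at -0.001 (combination minus enalapril) on the deposited values. Psmd11 over the 15-week groups minus baseline was 0.053 on its second probe set. Other probe sets at the floor on most arrays gave no value.

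Medians over the 39 subunits with the common median were 0.033 (vehicle minus baseline), -0.064 (paricalcitol minus vehicle), -0.027 (enalapril minus vehicle), 0.013 (combination minus vehicle), 0.083 (combination minus paricalcitol), 0.115 (interaction) and 0.035 (15-week groups minus baseline). On the deposited values they were -0.284 (vehicle minus baseline), 0.228 (enalapril minus vehicle), -0.092 (combination minus enalapril), 0.047 (combination minus paricalcitol), -0.175 (interaction) and -0.157 (15-week groups minus baseline); the cause was not tested. On those values the median of all genes moved by -0.201 (vehicle minus baseline), 0.172 (enalapril minus vehicle), -0.111 (combination minus enalapril), -0.139 (interaction) and -0.136 (15-week groups minus baseline). The share of all genes that were higher was 16.6%, 80.8%, 26%, 27.7% and 24.5% in those comparisons, against 47.1%, 53.4%, 49.8%, 48.6% and 52.8% after quantile normalization. With the common median it was 36% against 49.4% for paricalcitol minus vehicle and 59.2% against 48.6% for the interaction. For combination minus enalapril the subunit median was 0.064 with the common median. On the deposited values the subunit medians were 0.071 (paricalcitol minus vehicle) and 0.102 (combination minus vehicle).

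Subunits at an unadjusted p under 0.05 numbered 2 (deposited), 5 (common median) and 5 (dimmer genes left out, which keeps 38 of the 39) in the F test, against 10. They numbered 1 (common median) against 10 lower in vehicle than at baseline, 0 and 0 (deposited, common median) against 14 higher in paricalcitol than in vehicle, and 0, 2 and 7 (deposited, common median, dimmer genes left out) against 12 higher in the combination than in vehicle. The share of all genes was not computed for these counts under any alternative. Leaving out single arrays gave 7 to 11, 6 to 11, 6 to 15 and 6 to 13 for these counts. The lowest came without vehicle replicate 3. The medians then ran from -0.092 to -0.073 (vehicle minus baseline), 0.073 to 0.105 (paricalcitol minus vehicle), 0.004 to 0.054 (enalapril minus vehicle), 0.066 to 0.111 (combination minus vehicle), 0.025 to 0.08 (combination minus enalapril), -0.037 to 0.003 (combination minus paricalcitol), -0.076 to -0.023 (interaction) and -0.037 to -0.015 (15-week groups minus baseline).

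With the replicate block 0 subunits passed adjustment, and the counts at an unadjusted p were 13, 11, 15 and 13. For combination minus paricalcitol, the pair of groups in which equal numbers deviated together, the blocked adjusted p was 0.374 for Psmb10, 0.235 for Psmd1, 0.249 for Psmd2, 0.6 for Psmb1 and 0.471 for Psmd11. The block changed no call. With a red cell score as a covariate, the mean deviation of the red cell markers on each array, the counts at an unadjusted p were 13, 11, 15 and 11. The median deviation of these markers ranged most widely in the combination (-1.231 to 0.771) and paricalcitol (-1.231 to 0.911).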
